A study of Mus musculus with 8 samples.

Results

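Sox3 and 9 other SOX transcription factor genes of the mouse (Sox1, Sox2, Sox4, Sox5, Sox6, Sox9, Sox11, Sox12 and Sox13) were followed in cultured preSC cells after Max had been targeted. The 10 genes are a listed set of 23284 genes counted, matched by gene symbol, and Sox3 was chosen by its higher counts in the Max knockout than in the control libraries, so that its relatives could be read beside it. The comparison of knockout with control counts is therefore the one that chose them, and their levels and fold changes are given as a description, without p-values. preSC are precancerous neuroendocrine cells that serve as a culture model of early small cell lung cancer. RNA came from 4 Max KO and 4 control libraries, made from polyclonal populations transduced either with a sgRNA for Max or with a control sgRNA, selected with puromycin and expanded, with no further treatment. Both groups had the mixed strain background 129/SvJ; C57BL/6 and were derived from mice with a Chga-GFP reporter and conditional (lox) alleles of Rb, p53 and p130. Max itself, whose protein pairs with MYC, MNT and MGA proteins on DNA, was at 42.3, 42.3, 59.1 and 68.0 CPM in Max KO libraries libraries and at 65.5, 70.2, 75.2 and 61.9 CPM in controls (log2 fold change -0.37, edgeR adjusted p = 0.0955, but -0.52 and 0.0228 without knockout library 4), and the share of edited alleles in these uncloned populations was not measured here.

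SOX proteins bind DNA through an HMG box, a domain that sits in the minor groove and bends the helix, and they usually act beside a partner factor of another family. They are sorted into subgroups by the sequence of that box: SOXB1 (Sox1, Sox2, Sox3) are activators known from neural and pluripotent progenitors, SOXC (Sox4, Sox11, Sox12) are known from neurons that begin to differentiate, SOXD (Sox5, Sox6, Sox13) lack an activation domain of their own and shape the action of other factors, and SOXE includes Sox9, known from cartilage, testis and the tips of the growing lung. In the developing lung, SOX2 marks the proximal airway, from which neuroendocrine cells arise, and SOX9 the distal tips.

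The SOXB1 genes are so alike that stretches of their coding sequence are identical, which bears on whether reads of Sox3 can be told from those of its relatives. In the GENCODE transcripts (GRCm38), the 2065-base Sox3 transcript shared its longest identical run, 45 bases, with Sox1. This run lies at bases 646 to 690 of the transcript, inside the coding sequence of 1350 bases. The same stretch is shown for the 3 SOXB1 genes, 5′ to 3′, with capitals for the bases of Sox2 that differ from Sox3.
Sox3: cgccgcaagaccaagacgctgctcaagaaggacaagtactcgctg
Sox1: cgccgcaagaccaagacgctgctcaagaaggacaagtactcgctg
Sox2: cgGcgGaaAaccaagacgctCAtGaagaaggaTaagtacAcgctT
Sox2 matched Sox3 at 36 of these 45 bases, and its own longest run shared with Sox3 had 32 bases.
Sox3 and Sox2: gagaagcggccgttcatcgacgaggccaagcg
Of the 2041 windows of 25 bases in the Sox3 transcript, 27 also occurred in Sox1, 8 in Sox2 and none in the other 7 members, whose longest run shared with Sox3 was 23 bases, in Sox12. Read length is not given in the sources used here. A read that lies wholly within such a run has the same letters in both genes, and how reads of this kind were assigned is not known.

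Levels are given as CPM, counts scaled by the reads in genes of each library and adjusted with TMM factors. The libraries held 14952291 to 19480947 reads in genes in the knockout and 13711278 to 19804949 in the controls. Across genes, log2 CPM of the knockout libraries correlated at 0.993 to 0.995 with each other, and those of the controls at 0.973 to 0.995 (Pearson). Controls 3 and 4 had 23.3% and 23.4% of reads outside annotated exons, controls 1 and 2 had 18.5% and 18.6%, and the knockout libraries had 20.5% to 21.5%. The neuroendocrine label was borne out by Insm1 (603 to 818 CPM over all 8 libraries), Chga (398 to 478 CPM) and Syp (163 to 189 CPM), whereas 6 blood cell markers summed to 2.85 to 4.404 CPM in the knockout and 3.42 to 6.15 CPM in the controls, mostly Cd68, with Ptprc at 0 to 2 reads per library. The 4 endothelial markers summed to 0.887 to 1.22 CPM in the knockout and 1.01 to 2.12 CPM in the controls, with Cdh5 at or below 0.22 CPM. Separate cultures are not named in the labels for the replicates. Errors and p-values therefore cover the spread among libraries, and how much of it lies between cultures is not known.

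The 10 genes did not move together. Of the 9 that were abundant enough to be tested, 2 were higher in the knockout (Sox3 and Sox13), 3 were lower (Sox4, Sox6 and Sox11) and 4 did not pass the threshold (Sox1, Sox2, Sox5 and Sox12). The threshold was an adjusted p under 0.05 in edgeR's quasi-likelihood test, which called 10.9% of all 13358 tested genes higher and 12.2% lower. In the same 5 genes the libraries of both groups were fully separate, with the knockout above in 2 and below in 3, where 13.4% of all tested genes lay above and 13.1% below. The median log2 fold change was -0.10 over the 9 genes and -0.0036 over all tested genes. Because the genes were chosen on this comparison, nothing is read from these shares. In RNA from whole populations, fewer cells that express a gene and less RNA per cell cannot be told apart.

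**Figure D1:**
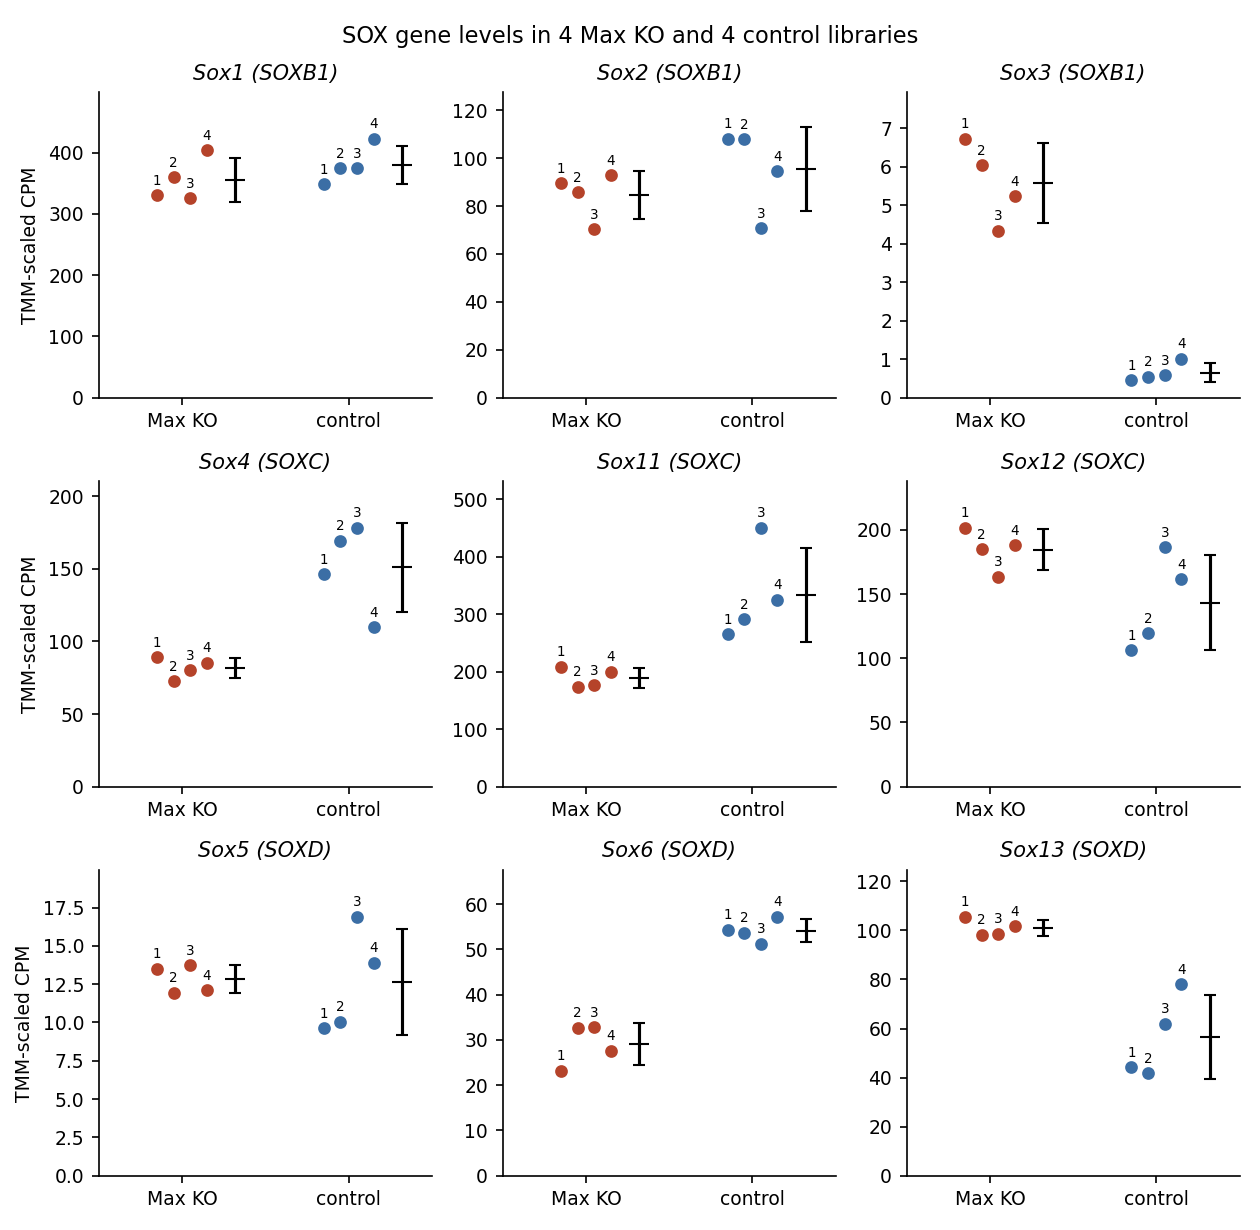
Level of each tested SOX gene (vertical axis, TMM-scaled CPM from 0) in Max KO (left) and control libraries (right). Points are single libraries, labelled with their replicate number, and bars give the mean ± SD (n = 4 each). For Sox3 and Sox13 every knockout point lies above the controls, for Sox4, Sox6 and Sox11 every knockout point lies below them, and the other 4 genes overlap.

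Sox3, the X-linked SOXB1 gene with a coding sequence in 1 exon and known roles in the hypothalamus, pituitary and male germ line, was counted with 129, 91, 64 and 82 reads in the knockout libraries and with 9, 9, 8 and 18 reads in the controls. This corresponded to 6.73, 6.04, 4.34 and 5.23 CPM in Max KO libraries and 0.453, 0.541, 0.586 and 1.01 CPM in controls. The lowest knockout library thus lay above the highest control, control 4. The means were 5.58 ± 1.03 CPM in Max KO libraries and 0.647 ± 0.248 CPM in control libraries (SD, n = 4 each), a log2 fold change of 3.10 (SE 0.27), or 8.55-fold. Only 1 other of the 13358 tested genes had a larger fold increase. Sox3 was chosen for its rise in this same comparison, so the rank only describes it. With 8 to 18 reads per control library, the size of the fold rests on few counts. The value was between 2.93 and 3.41 when any 1 library was left out, and it was 3.49 against controls 1 and 2 alone and 2.76 against controls 3 and 4 alone.

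The closest relatives of Sox3 did not share this difference. Sox1, a gene of early neural plate and of neural stem cells, was at 331, 360, 326 and 404 CPM in Max KO libraries and at 349, 375, 374 and 423 CPM in controls, and the groups overlapped (log2 fold change -0.10, SE 0.09). Sox2, needed for pluripotency and for airway and neuroendocrine progenitors, was at 89.6, 85.8, 70.3 and 92.9 CPM in Max KO libraries and at 108, 108, 70.7 and 94.5 CPM in controls (-0.17, SE 0.13). Control 3 lay nearly as low as the lowest knockout library. Without control 3 the difference in Sox2 was -0.29, and with only controls 1 and 2 it was -0.35, and in both fits it passed the threshold, whereas with only controls 3 and 4 it was 0.03. Sox2ot, a long noncoding RNA gene whose locus spans Sox2, was at 3.39 to 4.27 CPM in Max KO libraries and 2.71 to 3.29 CPM in controls, above in every library but without passing the threshold (0.35, SE 0.17, edgeR adjusted p = 0.163). The counting is not said to use strand.

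Even at its higher level Sox3 remained a small part of the SOXB1 messages. Per kilobase of annotated exon, Sox3 made up 2.31 ± 0.41% of the summed level of Sox1, Sox2 and Sox3 in the knockout and 0.249 ± 0.084% in the control (SD, n = 4 each). The knockout libraries ranged from 1.93% to 2.83% and the controls from 0.176% to 0.365%. Sox1 held 62.7 ± 2.4% of that sum in the knockout and 62.9 ± 5.2% in the control, and Sox2 held 35.0 ± 2.0% in the knockout and 36.8 ± 5.3% in the control, with overlapping groups for both genes. In absolute CPM, Sox3 gained 4.94 CPM, while the mean of Sox1 was 25.1 CPM below its control and that of Sox2 10.7 CPM below. The summed SOXB1 level was 445 ± 43 CPM in Max KO libraries and 476 ± 32 CPM in control libraries.

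Among the SOXC genes, Sox4 and Sox11 fell and Sox12 did not. Sox4, a factor of neuronal and lymphoid development that is abundant in many tumours, was at 89.2, 72.7, 80.0 and 85.2 CPM in Max KO libraries and at 146, 169, 178 and 110 CPM in controls. Control 4 came nearest the knockout but stayed above it. The means were 81.8 ± 7.14 CPM in Max KO libraries and 151 ± 30.6 CPM in control libraries (SD, n = 4 each; log2 fold change -0.88, SE 0.13). Sox11, which drives neuronal genes during differentiation, was at 209, 174, 176 and 200 CPM in Max KO libraries and at 266, 292, 451 and 326 CPM in controls, where control 3 stood highest. Its log2 fold change was -0.81 (SE 0.15), and it was -0.56 with only controls 1 and 2 and -1.04 with only controls 3 and 4. Sox12, the SOXC protein with the weakest activation of its targets, was at 202, 185, 164 and 188 CPM in Max KO libraries and at 106, 120, 187 and 161 CPM in controls. Controls 1 and 2 lay below all knockout libraries, and controls 3 and 4 lay among them (0.37, SE 0.16). Sox12 passed the threshold as higher without control 3 (0.52) and with only controls 1 and 2 (0.71), and it was 0.08 with only controls 3 and 4.

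The make-up of the SOXC group therefore differed between the groups in every library. Per kilobase, Sox12 held 51.0 ± 1.8% of the SOXC sum in the knockout and 30.9 ± 4.4% in the control (SD, n = 4 each), with no overlap. Sox11 held 28.03 ± 0.76% in the knockout and 38.4 ± 2.2% in the control. Sox4 held 21.0 ± 1.2% in the knockout and 30.7 ± 6.2% in the control, and neither gene's groups overlapped. The summed SOXC level ran from 420 to 500 CPM in Max KO libraries and from 518 to 816 CPM in controls, the highest being control 3.

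**Figure D2:**
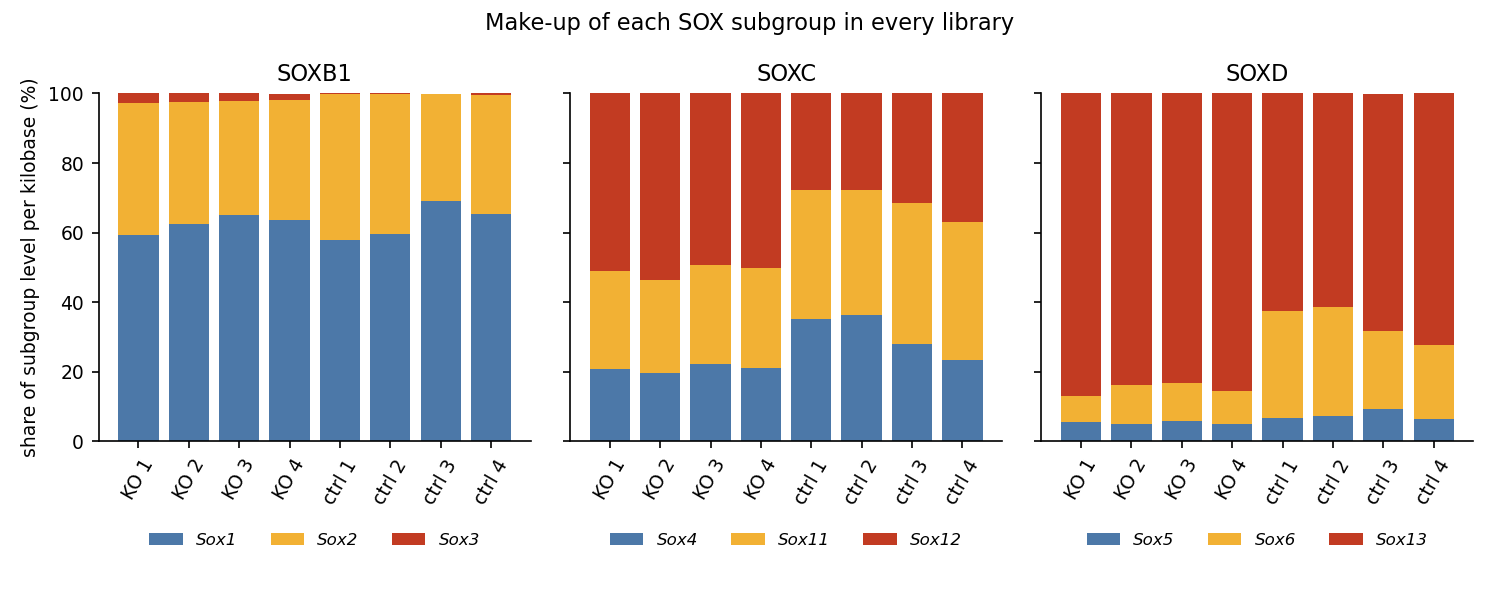
Share of each gene in the summed level per kilobase of its SOX subgroup (vertical axis, percent) in each library (horizontal axis, Max KO libraries left, controls right). Sox3 is a thin band at the top of SOXB1 in the knockout, 1.93% to 2.83%, whereas Sox12 and Sox13 take a larger share of SOXC and SOXD in every knockout library than in any control.

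The SOXD genes also split, with Sox13 higher and Sox6 lower. Sox13, known from T cell, neural and cartilage development and as an islet cell antigen, was at 106, 98.3, 98.6 and 102 CPM in Max KO libraries and at 44.2, 41.9, 62.0 and 78.2 CPM in controls. The knockout libraries were nearly equal, and the controls spread upward towards them without reaching them. The log2 fold change was 0.84 (SE 0.17), at 1.23 against controls 1 and 2 alone and 0.52 against controls 3 and 4 alone. Sox6, which with Sox5 helps SOX9 in cartilage and restrains the oligodendrocyte programme, was at 23.2, 32.6, 32.8 and 27.6 CPM in Max KO libraries and at 54.4, 53.7, 51.2 and 57.2 CPM in controls. It fell to 29.1 ± 4.60 CPM in Max KO libraries, against 54.1 ± 2.46 CPM in control libraries (SD, n = 4 each; -0.90, SE 0.11), and of the 5 genes it moved least between the pairs of controls, at -0.90 against controls 1 and 2 and -0.91 against controls 3 and 4. Sox5 was at 13.5, 11.9, 13.8 and 12.1 CPM in Max KO libraries and at 9.61, 10.04, 16.9 and 13.9 CPM in controls (0.03, SE 0.17). The knockout libraries of Sox5 lay between both pairs of controls, and its sign turned with upper-quartile scaling (-0.016), without knockout library 1 or 3, without control 1 or 2 and with only controls 3 and 4 (-0.26), while with only controls 1 and 2 it passed the threshold (0.39).

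The summed SOXD level changed little beside these shifts, at 143 ± 1.62 CPM in Max KO libraries and 123 ± 20.5 CPM in control libraries (SD, n = 4 each), with control 4 (149 CPM) above all knockout libraries. Per kilobase, Sox13 held 84.8 ± 1.7% of the SOXD sum in the knockout and 66.1 ± 5.2% in the control, and Sox6 held 9.76 ± 1.7% in the knockout and 26.4 ± 5.3% in the control, both without overlap.

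**Figure D3:**
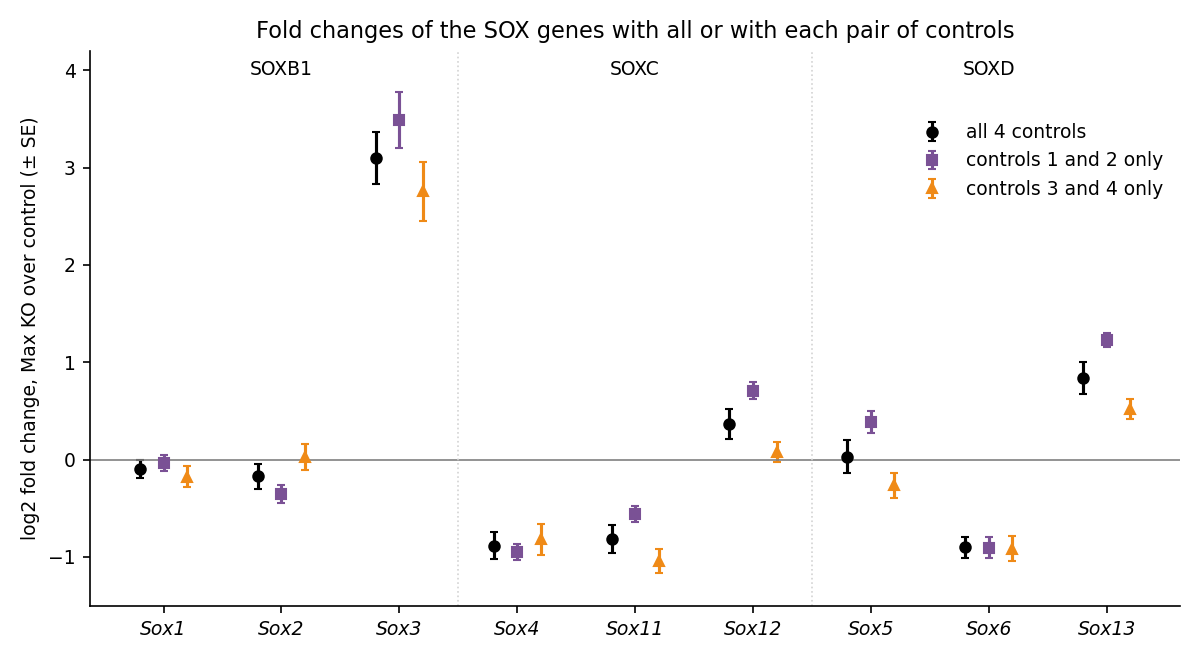
Log2 fold change of each tested SOX gene, Max KO over control (vertical axis, ± SE of the fit), by subgroup, with all 4 controls and with each pair of controls alone. Sox3, Sox4, Sox6, Sox11 and Sox13 keep their side of 0 under all 3 sets of controls, Sox6 hardly moves, and Sox5 and Sox2 cross 0.

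Sox9 was barely detected. It had 2, 0, 3 and 1 reads in the knockout libraries and 3, 3, 4 and 1 in the controls, which is at or near the limit of 3 reads (0.151 to 0.219 CPM), so it was not tested and no fold is given. The distal lung factor was thus near the limit of detection in both groups. The proximal factor Sox2 was among the most abundant of the set per kilobase. No proximal or distal state is read from these genes.

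Per kilobase of exon, which allows levels of different genes to be compared, the order in the knockout was Sox1 (73.5 CPM per kilobase), Sox12 (41.5), Sox2 (41.1), Sox13 (27.0), Sox11 (22.8), Sox4 (17.1), Sox6 (3.10), Sox3 (2.70), Sox5 (1.73) and Sox9 (0.022). In the controls it was Sox1 (78.7), Sox2 (46.3), Sox11 (40.1), Sox12 (32.2), Sox4 (31.5), Sox13 (15.1), Sox6 (5.78), Sox5 (1.70), Sox3 (0.314) and Sox9 (0.041). Neighbours in the order that overlapped between libraries were Sox12 with Sox2 and Sox6 with Sox3 in the knockout, and Sox2 with Sox11, Sox11 with Sox12 and Sox12 with Sox4 in the controls. Sox13 thus ranked above both Sox11 and Sox4 in the knockout and below them in the controls. The exon lengths are those of GENCODE, and the annotation used for counting may differ from it.

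The controls varied more than the knockout libraries for 7 of the 9 tested genes, all but Sox1 and Sox6. The coefficient of variation ran from 3.37% (Sox13) to 18.5% (Sox3) in the knockout and from 4.55% (Sox6) to 38.3% (Sox3) in the controls. For Sox3, Sox5, Sox11, Sox12 and Sox13, controls 3 and 4 both lay above controls 1 and 2, the direction in which the share of reads outside exons also differed between these controls. Sox2 lay the other way, with controls 3 and 4 (70.7 and 94.5 CPM) below controls 1 and 2 (108 and 108 CPM). Sox1, Sox4 and Sox6 showed neither order. The part of the share of reads outside exons in the values was not tested.

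The remaining SOX genes added no change past the threshold with all 4 controls, but their calls depended on which controls were kept. Of the 10 genes (9 SOX genes and Sry), 3 were tested and 0 passed in edgeR, DESeq2 or limma-voom, although 2 had an unadjusted edgeR p under 0.05, and 3 passed against controls 1 and 2 alone and 1 against controls 3 and 4 alone. Sox21, a SOXB2 gene that counteracts SOXB1 activity, was at 7.05, 7.70, 6.03 and 7.85 CPM in Max KO libraries and at 5.08, 5.65, 44.4 and 49.8 CPM in controls. The knockout libraries of Sox21 lay just above controls 1 and 2 and far below controls 3 and 4, so that the fold change was -1.86 with all controls (SE 0.77, edgeR adjusted p = 0.125), 0.42 with only controls 1 and 2 and -2.73 with only controls 3 and 4, the last 2 past the threshold in opposite directions. Sox8, a SOXE gene related to Sox9, was at 1.41 to 3.25 CPM in Max KO libraries and 2.05 to 4.87 CPM in controls (-0.71, SE 0.30, edgeR adjusted p = 0.110), and it passed the threshold without control 3 (-0.91) and against controls 1 and 2 alone (-0.98). Sox7 (0.26, SE 0.58) was below 1.1 CPM in every library, Sox15 below 0.58 CPM, and Sox10, Sox14, Sox17, Sox18, Sox30 and Sry had from 0 to 4 reads per library.

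POU and PAX factors are the proteins best known to bind DNA beside SOX proteins. Of 15 such genes, 9 were tested, 1 was higher, 2 were lower and 6 did not pass the threshold, with a median of -0.16. Among all tested genes, 10.9% were called higher and 12.2% lower, with a median of -0.0036, and nothing is read from the counts. Pou2f1, the broadly expressed octamer factor, was at 83.0, 90.0, 82.1 and 76.0 CPM in Max KO libraries and at 63.7, 55.5, 58.9 and 64.1 CPM in controls (0.45, SE 0.08, edgeR adjusted p = 0.00193). Pou3f1 fell to 0.270 ± 0.099 CPM in Max KO libraries, against 1.13 ± 0.409 CPM in control libraries (SD, n = 4 each; -2.06, SE 0.39, edgeR adjusted p = 0.00302). Pax6, a partner of SOX2 in the eye, fell to 0.391 ± 0.056 CPM in Max KO libraries, against 0.946 ± 0.116 CPM in control libraries (-1.28, SE 0.28, edgeR adjusted p = 0.00656). Both are low counts, but for neither gene did the groups overlap. Pou3f2, the neural partner of SOX2 and SOX11 and the most studied of them in neuroendocrine tumours, was at 30.1 to 37.2 CPM in Max KO libraries and 23.002 to 31.5 CPM in controls (0.33, SE 0.11, edgeR adjusted p = 0.0594). Without control 3, 6 of these genes passed the threshold instead of 3, also with only controls 1 and 2. Of the 5 genes for beta-catenin and its TCF and LEF partners, which also carry an HMG box, 3 were tested, and Ctnnb1 alone passed (-0.34, SE 0.10, edgeR adjusted p = 0.0308), and its call was lost without any 1 of the knockout libraries, without control 1, without control 2 and against controls 3 and 4 alone (adjusted p = 0.203).

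**Figure D4:**
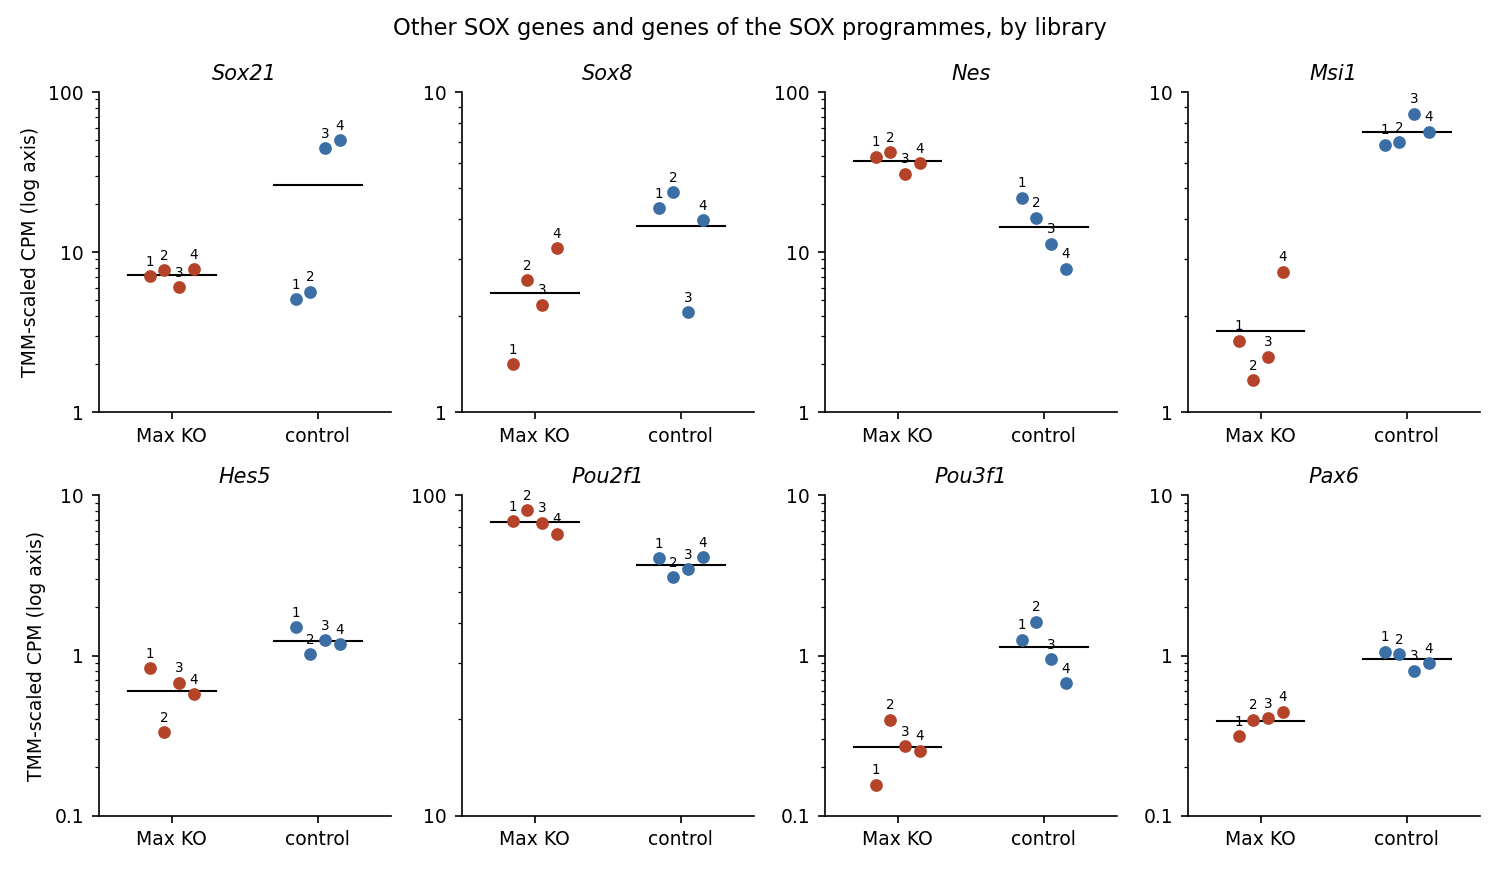
Levels of Sox21, Sox8 and 6 genes linked to SOX proteins (vertical axes, TMM-scaled CPM on log axes) in Max KO (left) and control libraries (right). Points are libraries with their replicate number and lines are means (n = 4 each). For Nes, Msi1, Hes5, Pou2f1, Pou3f1 and Pax6 the groups do not overlap, and for Sox21 controls 3 and 4 stand apart from all other libraries.

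Genes reported as targets or companions of SOXB1 factors in progenitor cells moved in both directions. Of 14 listed, 7 were tested, 1 was higher, 2 were lower and 4 did not pass, with a median of -0.23. Of all 13358 tested genes, 10.9% were called higher and 12.2% lower, with a median of -0.0036. With so few genes in the list, nothing is read from its counts. Nes, which encodes the neural stem cell filament nestin, was at 39.3, 42.2, 30.9 and 35.9 CPM in Max KO libraries and at 21.8, 16.4, 11.3 and 7.85 CPM in controls (1.36, SE 0.25, edgeR adjusted p = 0.00321). Every knockout library exceeded every control, and the value was 0.95 with only controls 1 and 2 and 1.96 with only controls 3 and 4. Msi1, an RNA-binding protein of neural stem cells, was at 1.67, 1.26, 1.49 and 2.74 CPM in Max KO libraries and at 6.85, 6.98, 8.56 and 7.52 CPM in controls (-2.05, SE 0.22, edgeR adjusted p = 9.44e-05). Hes5, a Notch-induced repressor, fell to 0.605 ± 0.211 CPM in Max KO libraries, against 1.24 ± 0.203 CPM in control libraries (SD, n = 4 each; -1.01, SE 0.30, edgeR adjusted p = 0.0300). The call of Hes5 ended without knockout library 2, 3 or 4 or control 1, with DESeq2, without the count filter and with only controls 3 and 4 (adjusted p up to 0.0901). Neurog3, a bHLH gene that SOX3 is linked to in mouse spermatogonia, was at 9.69 to 10.5 CPM in Max KO libraries and 9.81 to 16.3 CPM in controls (-0.23, SE 0.16, edgeR adjusted p = 0.338), and Fgf4, Hesx1, Utf1 and Zfp42 had from 0 to 2 reads per library.

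Of 7 genes reported downstream of SOXC factors, 6 were in the files and 3 were tested. Dcx, the doublecortin gene of young neurons and a SOX11 target, was at 1.20, 0.796, 1.22 and 1.60 CPM in Max KO libraries and at 10.02, 6.86, 26.6 and 1.12 CPM in controls (-3.18, SE 0.79, edgeR adjusted p = 0.0168). Control 4 lay among the knockout libraries, and the call was lost when control 1 or knockout library 2 was left out, without the count filter, in limma-voom and against controls 3 and 4 alone (adjusted p up to 0.136). Tubb3, the neuronal tubulin gene that SOX4 and SOX11 switch on, was at 119 to 128 CPM in Max KO libraries and 85.8 to 165 CPM in controls (0.10, SE 0.16, edgeR adjusted p = 0.704), and Ezh2 was at 160 to 186 CPM in Max KO libraries and 179 to 207 CPM in controls (-0.16, SE 0.08, edgeR adjusted p = 0.158). Of the 7 listed genes, 2 passed the threshold without knockout library 1, 3 or 4 or control 3 or 4, 3 passed with only controls 1 and 2, and 0 without control 1 or with only controls 3 and 4.

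Of 13 cartilage genes under SOX9, SOX5 and SOX6, 4 were tested and 2 fell past the threshold, where 12.2% of all tested genes did. Col9a3, a chain of collagen IX, was at 1.42 to 2.30 CPM in Max KO libraries and 3.42 to 3.73 CPM in controls (-0.99, SE 0.20, edgeR adjusted p = 0.00358), and Col11a2, a chain of collagen XI, was at 7.10 to 10.97 CPM in Max KO libraries and 12.4 to 24.0 CPM in controls (-0.91, SE 0.22, edgeR adjusted p = 0.0106). Neither pair of groups overlapped, although the fall of Col11a2 was -1.24 with only controls 1 and 2 and -0.49 with only controls 3 and 4. Col9a2, the most abundant of the list, did not pass (-0.07, SE 0.08), and the cartilage hallmarks Col2a1 and Acan were at or below 1.08 CPM. Col11a1 lay the other way without passing (0.46, SE 0.27, edgeR adjusted p = 0.253). It was at 27.7, 36.6, 36.5 and 34.5 CPM in Max KO libraries and at 35.1, 32.8, 14.2 and 15.9 CPM in controls. With only controls 3 and 4, 4 genes of the list passed the threshold, in directions that are not reported here. Of 18 genes of the proximal airway and the distal tips of the lung, 11 were tested and 1 passed. Among all tested genes, 10.9% passed as higher and 12.2% as lower. Fgfr2, the receptor for FGF10 at the lung tips, fell to 16.0 ± 2.74 CPM in Max KO libraries, against 28.8 ± 5.20 CPM in control libraries (SD, n = 4 each; -0.85, SE 0.15, edgeR adjusted p = 0.00165). The lung lineage factor Nkx2-1 (486 to 593 CPM in Max KO libraries, 502 to 607 CPM in controls) and Foxa2 (214 to 256 CPM in Max KO libraries, 201 to 248 CPM in controls) overlapped between the groups, and the airway markers Trp63, Krt5 and Scgb1a1 were at or below 0.073 CPM, while Foxj1 of ciliated cells was at 2.19 to 3.96 CPM in Max KO libraries and 3.07 to 3.93 CPM in controls (-0.25, SE 0.20, edgeR adjusted p = 0.426). Other genes of the lung list were expressed without passing. Over all libraries, Id2 was at 291 to 414 CPM, Gata6 at 20.6 to 32.6, Etv4 at 8.71 to 21.1 and Etv5 at 5.78 to 19.5 CPM. Bmp4 was at or below 0.561 CPM and was not tested. Without control 3, 2 genes of the lung list passed, and with only controls 1 and 2, 6 did.

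Markers of other cell types were mostly near 0, with exceptions that moved with the groups. Of 7 fibroblast markers, Lum had no read, and Col1a1, Col1a2 and Col3a1 were at or below 0.403 CPM. Dcn, at 49.1 to 65.0 CPM in Max KO libraries and 21.4 to 42.8 CPM in controls (0.77, SE 0.19, edgeR adjusted p = 0.0124), made up most of the summed fibroblast level, which was 49.3 to 65.8 CPM in Max KO libraries and 24.7 to 45.1 CPM in controls. Pdgfra went the other way, at 0.052 to 0.339 CPM in Max KO libraries and 0.785 to 2.27 CPM in controls (-2.37, SE 0.48, edgeR adjusted p = 0.00423). Of 5 glial markers, Mbp rose (0.30, SE 0.08, edgeR adjusted p = 0.0196, lost without knockout library 2 or 3, without control 2 and against controls 3 and 4 alone, up to 0.123) and set the summed level, at 184 to 204 CPM in Max KO libraries and 141 to 178 CPM in controls, while Foxd3, like Sox10, had from 0 to 1 read per library. Of 6 germ cell markers, Dazl, Ddx4, Sycp3, Stra8 and Mael were at or below 0.421 CPM in every library. Zbtb16, a transcription factor gene of spermatogonia and of several other cell types, was at 11.5 to 13.9 CPM in Max KO libraries and 8.56 to 14.1 CPM in controls (0.11, SE 0.15, edgeR adjusted p = 0.624), and it made up nearly all of the summed germ cell level. The part of these cell types in the SOX values was not tested.

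The genes around Sox3 were mostly silent in both groups. Of the 5 genes present in the files on each side of it on the X chromosome (RefSeq order, GRCm38.p6), 6 had no read, and F9, Mcf2 and C030023E24Rik had 1 to 3 reads over all 8 libraries, too few to be tested. RefSeq upstream windows of 250 bases (GRCm38.p6) were at hand for 8 of the 10 members, not for Sox3 and Sox9. The E-box CACGTG, to which MAX dimers bind, was searched for on both strands (it reads the same on each) and occurred in 0 of their 13 windows, against 6.02% of all 32851 windows. This says only that these letters are not in those windows.

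The genes nearest Sox3 in profile over the 8 libraries were genes with a large rise, not other members of the SOX set. Likeness was measured as the root mean square difference of log2 CPM between 2 genes, each centred on its own mean over the 8 libraries, among 12973 other genes whose average log2 CPM was 0 or more. Among the 6 nearest were 2610528J11Rik (0.36 on the log2 scale), Lad1 (0.38), Tmem125 (0.38), Kcnj1 (0.45) and Pvrl4 (0.51). They encode, among others, a component of epithelial anchoring filaments (Lad1), an inward rectifier potassium channel (Kcnj1) and nectin-4 (Pvrl4). Lad1, for example, was at 10.5, 10.8, 6.23 and 9.70 CPM in Max KO libraries and at 1.36, 1.62, 2.05 and 2.69 CPM in controls, low in the same knockout library 3 and highest in the same control 4 as Sox3. Among the tested SOX members, Sox13 came nearest, with a difference of 1.04 and 191 genes closer. Sox12 was next with 1.29, whereas Sox6 (1.95) and Sox4 (1.95) lay farthest. The measure is not scaled, so it includes the difference between the groups, by which Sox3 was chosen. The 6 nearest genes had log2 fold changes of 2.06 to 3.33, and the other tested members -0.90 to 0.84. The order thus largely restates the size of the fold changes. The 6 genes were named for their likeness to Sox3, and no test was made of it.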

How the data were processed

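The authors deposited raw read counts per gene symbol, 1 table per library. Per the submitters' processing notes, bcl2fastq 1.8.4, TopHat2 2.0.12, HTSeq 0.6.1 and the mm9 build were used. The annotation is not given in the sources used here, nor is the strand setting. Per the labels' protocols, libraries were made from 500 ng of total RNA with an NEB Ultra RNA kit. The 5 HTSeq summary rows of each table name no gene and were left out of library sizes; reads outside exons were 18.5% to 23.4% of uniquely aligned reads.

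Of 23284 genes, filterByExpr kept 13358. Counts were scaled with TMM factors and compared in R 4.3.3 with edgeR 4.0.16 (glmQLFit with robust estimation, glmQLFTest, group as the only term, Benjamini-Hochberg adjustment over all tested genes). The SE of a log2 fold change is its size divided by the square root of F. The members, the gene lists and the tests were chosen with earlier results of these data known. Named genes were the 10 members, the other SOX genes, up to 6 genes of each list past the threshold and defining markers. Sox3's neighbours and the 6 genes nearest it in profile were also named. Others were chosen after their values were seen (Pou3f2, Neurog3, Tubb3, Ezh2, Col9a2, Col11a1, Nkx2-1, Foxa2, Foxj1, Id2, Gata6, Etv4, Etv5, Bmp4, Zbtb16 and genes named as near 0). The procedure was tested on simulated counts. Alternatives were other scalings and filters, DESeq2 1.42.0, limma-voom (limma 3.58.1), no robust estimation, a replicate block, leaving out each library and keeping either pair of controls. Exon lengths and transcripts came from GENCODE M21 and promoters from RefSeq (both GRCm38), matched by symbol; no coordinates were combined with the mm9 counts. Limits of 3 counts cover counting error only. Values of some listed genes are not reported here.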

Additional observations from a re-analysis of the deposited data

How the results depend on the processing

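The log2 fold change of Sox3 was 2.76 to 3.49 over 18 alternatives, which are refits of the comparison that chose it and so only describe its range. Leaving out any 1 library, it was 2.93 to 3.41 for Sox3, 2 to 3 members were called higher and 3 to 4 lower, and 2102 to 3743 of all genes passed the threshold, against 3084 (1457 higher, 1627 lower). With only controls 1 and 2 kept, 6068 genes passed, and 4 members were called higher and 4 lower. Upper-quartile scaling called 1160 genes higher and 1965 lower, and the median of all genes moved to -0.05. For the 8 tested members other than Sox3, 132 of 144 outcomes kept direction and call, 5 gained a call and 7 changed direction. The changes of direction concerned Sox2 (0.025 with only controls 3 and 4) and Sox5, which was -0.016 after upper-quartile scaling, -0.26 against controls 3 and 4 alone, and -0.087 to 0.20 leaving out 1 library, below 0 without knockout library 1 (-0.0021) or 3 (-0.010) or control 1 or 2 (-0.071). Sox21 turned to 0.42 with only controls 1 and 2. The cause of these changes was not tested. The fits with either pair of controls have 2 controls and rest on libraries known to differ.

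The replicate numbers showed no sign of pairing. Deviations from the group means of same-numbered libraries correlated at -0.20, -0.01, 0.0020 and -0.11, and none correlated best with its own number. The labels do not say whether equal numbers share a culture. Differences among the controls could hide it, so pairing is not excluded. With the replicate block, 2532 genes passed the threshold, Sox3 was at 3.11, and 2 members were called higher and 3 lower. The block also ended the calls of Ctnnb1 (adjusted p = 0.0647) and Uchl1 (adjusted p = 0.0511). Fold changes of the genes outside the set were recomputed under the same alternatives after their values had been seen. Sox9 and the SOX genes near 0 are limited by depth, and Sox9 averaged 0.092 CPM in Max KO libraries and 0.171 CPM in controls by plain totals, and 0.093 CPM in Max KO libraries and 0.170 CPM in controls by TMM-scaled totals.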

Other observations

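Controls 3 and 4 stood apart from controls 1 and 2 in genes beside Sox21. Calca, the neuroendocrine peptide gene, was at 525, 556, 589 and 524 CPM in Max KO libraries and at 1980, 1783, 399 and 467 CPM in controls 1 to 4. The knockout thus lay above controls 3 and 4 and far below controls 1 and 2, the reverse of Sox21, and the log2 fold change of -1.08 (SE 0.50) did not pass the threshold (edgeR adjusted p = 0.164). Among the other neuroendocrine markers, Chgb was at 183 to 196 CPM in Max KO and 238 to 259 CPM in controls (-0.37, SE 0.07, edgeR adjusted p = 0.00183), and Uchl1 was at 687 to 833 CPM in Max KO and 464 to 748 CPM in controls (0.41, SE 0.14, edgeR adjusted p = 0.0496). The call of Uchl1 was lost in 7 of the 8 fits that left out 1 library, all but that without control 3, against controls 3 and 4 alone (adjusted p = 0.290), with upper-quartile scaling (0.0846) and with a filter of at least 1 CPM in 4 libraries (0.0572). Of the 9 neuroendocrine markers, 7 did not pass the threshold, with a median of -0.02. Among all tested genes, 10.9% were called higher and 12.2% lower.

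Dixon's criterion picked out no library in any of the 20 sets of 4 values of the 10 SOX genes.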
